A study of Rattus norvegicus with 6 samples.

Results

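Gdf15 and 9 genes of the integrated stress response were followed in kidney RNA of 6 male Sprague Dawley rats. The set was named by symbol, as Gdf15, Atf4, Atf3, Atf5, Ddit3, Trib3, Asns, Chac1, Sesn2 and Ppp1r15a, and all 10 symbols were found among the 17051 genes of the files. It was drawn up because Gdf15 was known to be higher on the amino acid diet in these same rats, and the question was whether other Atf4 targets were higher with it. The diet difference of the 10 genes is therefore a description, and counts over the set stand beside the share of all genes and support nothing. The AL group consisted of 3 rats (61, 71 and 88) that ate standard chow freely. The HD group consisted of 3 rats (64, 67 and 69) that received an ammonia-generating mixture of amino acids, modeled on hemoglobin, in powdered chow at 3 g per kg per day. Both diets lasted 7 days, and the study's protocol placed all animals under isoflurane anesthesia for surgery and infusion at the end. Per the study, the diet was meant to raise renal ammonia production in animals of normal liver function. It is not a model of liver failure.

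The integrated stress response begins with kinases that phosphorylate the translation factor eIF2, among them Gcn2 (Eif2ak4), which senses uncharged tRNA when amino acids are scarce, and Perk (Eif2ak3), which senses unfolded protein in the endoplasmic reticulum. Phosphorylated eIF2 lowers protein synthesis in general but favors translation of the Atf4 mRNA, so Atf4 protein can rise without a change of its mRNA. Atf4 then activates genes for amino acid synthesis and uptake, and with stronger stress the transcription factor Ddit3 (CHOP). Gdf15 is a secreted stress hormone of the TGF-beta superfamily. It is transcribed under Atf4 and Ddit3 but also under p53, and it acts on a brainstem receptor made of Gfral and Ret.

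Depth ranged from 12499945 to 30466461 estimated counts per rat and was highest in rat 69 of the HD group. Levels are given as TMM-normalized CPM (counts scaled to library size), and a log2 fold change is that of HD relative to AL in edgeR, with its standard error (SE). Testing required 30 or more estimated counts in any 1 rat, which 11553 genes reached. All 10 genes of the set passed, but Chac1 and Trib3 did so only through HD rats. The label of kidney tissue was matched by its defining markers, since the summed level of 6 proximal tubule markers was between 6395 and 11754 CPM, that of 4 thick ascending limb markers between 3648 and 6232 and that of 4 collecting duct markers between 971 and 1251. The kidneys were bulk tissue, so more RNA per cell and more cells of a type cannot be told apart.

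The promoters of 4 of the genes are shown first, Gdf15 and Sesn2 because their levels separated the groups, and Chac1 and Trib3 because their windows contain the core of the amino acid response element that Atf4 binds. Each window runs from 250 bases before to 50 bases after a RefSeq start site on build GRCr8, written from 5′ to 3′ on the strand of the gene. Capitals mark the core, TGATGNAA or its reverse complement TTNCATCA.
Gdf15, chr16:18839015-18839314, plus strand: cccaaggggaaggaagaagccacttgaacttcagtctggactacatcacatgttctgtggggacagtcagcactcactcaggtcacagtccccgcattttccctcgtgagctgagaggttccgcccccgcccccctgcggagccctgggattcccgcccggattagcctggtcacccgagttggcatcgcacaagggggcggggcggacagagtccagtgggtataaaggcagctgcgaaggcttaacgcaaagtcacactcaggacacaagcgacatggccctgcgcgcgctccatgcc
Sesn2, chr5:150005206-150005505, minus strand: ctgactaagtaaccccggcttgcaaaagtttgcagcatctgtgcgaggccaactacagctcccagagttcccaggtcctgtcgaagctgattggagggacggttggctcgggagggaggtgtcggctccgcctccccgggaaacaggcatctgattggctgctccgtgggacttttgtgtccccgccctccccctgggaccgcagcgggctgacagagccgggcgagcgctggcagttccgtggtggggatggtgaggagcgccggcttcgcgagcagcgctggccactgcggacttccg
Chac1, chr3:126795881-126796180, plus strand: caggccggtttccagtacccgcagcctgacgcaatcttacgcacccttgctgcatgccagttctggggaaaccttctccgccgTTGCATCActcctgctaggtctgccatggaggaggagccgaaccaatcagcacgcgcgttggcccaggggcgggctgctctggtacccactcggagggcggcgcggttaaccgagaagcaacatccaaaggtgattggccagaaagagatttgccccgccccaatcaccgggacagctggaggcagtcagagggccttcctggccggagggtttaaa
Trib3, chr3:161275484-161275783, minus strand: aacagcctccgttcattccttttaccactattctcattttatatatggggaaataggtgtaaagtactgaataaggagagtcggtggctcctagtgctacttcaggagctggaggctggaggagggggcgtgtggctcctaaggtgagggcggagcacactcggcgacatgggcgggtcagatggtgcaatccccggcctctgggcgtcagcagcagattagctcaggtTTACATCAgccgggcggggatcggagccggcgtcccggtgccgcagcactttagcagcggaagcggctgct
RefSeq windows were matched for 9 of the 10 genes, 10 windows in all because Gdf15 has an upstream start site as well. The core was found in 2 of the 10 windows, ending 160 bases before the start site of Chac1 and 14 bases before that of Trib3. Over 33469 rat promoter windows of the same length, 3.98% contained it. The cyclic AMP response sequence TGACGTCA, another site of this transcription factor family, was found in the window of Ppp1r15a, 59 bases before its start, and in 1.83% of all windows. No match overlapped another. Both windows of Gdf15 and the window of Sesn2 contained neither sequence, which says nothing about sites elsewhere in these genes.

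Gdf15 (chromosome 16 of rn5, 20411167 to 20413750, 2 exons) was about 3 times as abundant in the HD group. Its level in the AL group was 51.0 CPM in rat 61, 39.2 in rat 71 and 27.3 in rat 88. In the HD group it was 139 in rat 64, 95.6 in rat 67 and 115 in rat 69. The lowest HD rat stood well above the highest AL rat, and the groups did not overlap. The AL mean was 39.2 ± 11.9 CPM and the HD mean 116 ± 21.7 CPM (SD, *n* = 3 each), a ratio of 2.97. The fitted log2 fold change was 1.57 (SE 0.24), and 115 of the 11553 tested genes had a larger one. With each rat left out in turn it ranged from 1.38 to 1.81.

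Sesn2 was the other gene of the set whose groups were separate. Sestrin 2 is a stress-induced protein that binds leucine and restrains mTORC1, the kinase complex that drives growth when amino acids are plentiful. The gene (chromosome 5 of rn5, 154351305 to 154370252, 10 exons) was at 30.7 CPM in rat 61, 30.8 in rat 71 and 30.2 in rat 88. In rats 64, 67 and 69 of the HD group it was at 57.9, 46.8 and 45.7 CPM. In CPM the 3 AL rats were almost equal, with a coefficient of variation of 0.971%, and each HD rat was above them. The near equality was particular to that scale. Per transcript length, as TPM, the AL rats ran from 16.3 to 19.7 and the HD rats from 25.2 to 31.7. The AL mean was 30.6 ± 0.297 CPM and the HD mean 50.1 ± 6.74 CPM (SD, *n* = 3 each). The log2 fold change was 0.71 (SE 0.12), ranging from 0.60 to 0.78 over the fits without 1 rat. Rat 64 had the highest level of both Gdf15 and Sesn2.

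**Figure D1:**
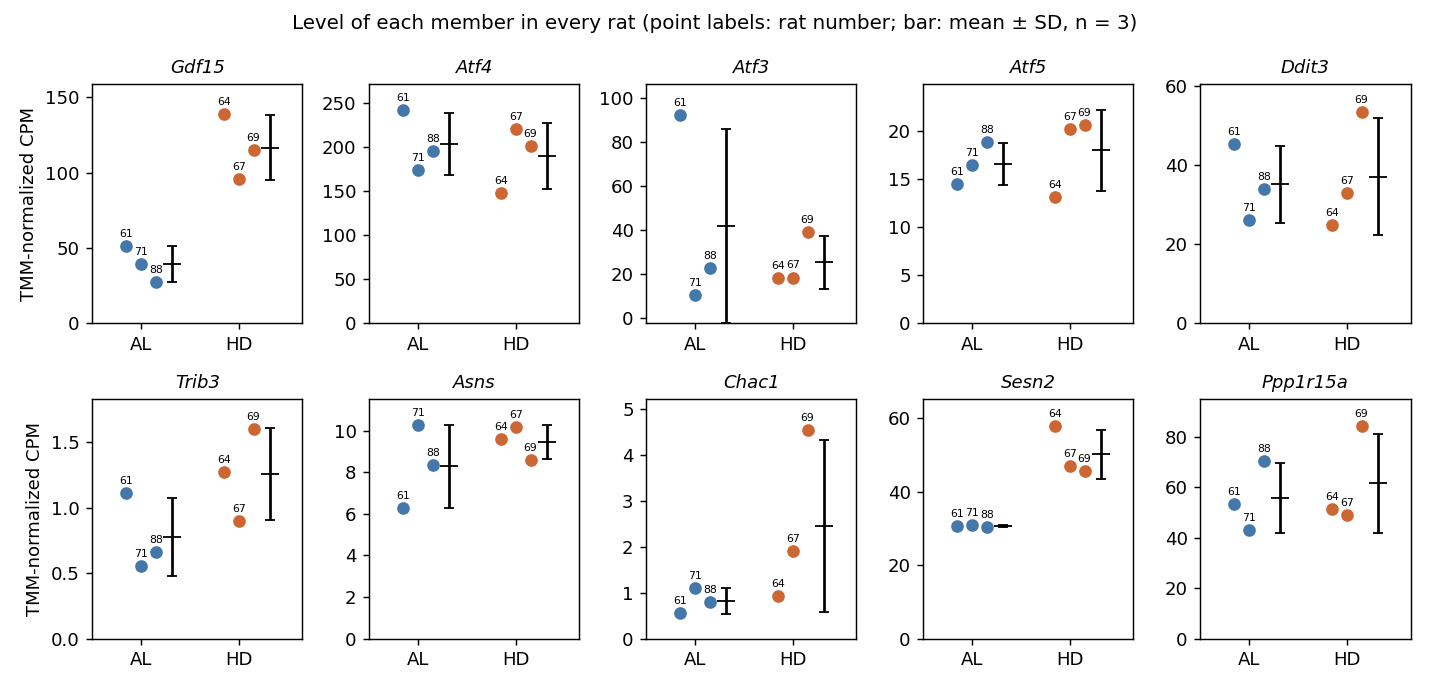
TMM-normalized CPM of each of the 10 genes in every rat, with AL rats in blue, HD rats in orange, rat numbers above the points, and a bar for the mean ± SD of 3 rats. The HD rats lie above all AL rats for Gdf15 (95.6 to 139 against 27.3 to 51.0) and Sesn2 (45.7 to 57.9 against 30.2 to 30.8), and the groups overlap for the other 8 genes.

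The transcription factors at the center of the response did not separate the groups. Atf4 (chromosome 7 of rn5, 121469311 to 121470587) was at 243, 174 and 196 CPM in AL rats 61, 71 and 88, and at 148, 221 and 201 in HD rats 64, 67 and 69. Its log2 fold change was -0.10 (SE 0.19), with a range from -0.22 to 0.05 over the fits without 1 rat. Rat 64, which had the most Gdf15 RNA, had the least Atf4 RNA. Atf5, a factor related to Atf4 that also responds to mitochondrial stress, was at 14.5, 16.4 and 18.8 CPM in the AL rats and at 13.1, 20.1 and 20.6 in the HD rats. Its log2 fold change was 0.12 (SE 0.21, range without 1 rat 0.01 to 0.30).

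Ddit3, the factor CHOP of prolonged stress, was at 45.3, 26.1 and 33.9 CPM in AL rats 61, 71 and 88 and at 24.8, 32.9 and 53.5 CPM in HD rats 64, 67 and 69. HD rats lay both below and above the AL range, and the log2 fold change was 0.09 (SE 0.31, range without 1 rat -0.27 to 0.31). Exons of Ddit3 share 124 bases with Mars on the opposite strand, and the library kit does not mark strand, so reads of that stretch are uncertain. Atf3, an immediate stress-induced factor, had the widest spread of the set. It was at 92.0 CPM in rat 61 but at 10.7 and 22.6 in the other AL rats, and at 18.4, 18.4 and 39.2 in HD rats 64, 67 and 69. The AL mean of 41.7 CPM thus rested on rat 61, and the log2 fold change of -0.70 (SE 0.73) became 0.62 without it.

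Among the downstream effectors, Chac1 and Trib3 had higher means in the HD group at very low levels. Chac1, an enzyme that degrades glutathione, was at 0.556, 1.11 and 0.794 CPM in AL rats 61, 71 and 88 and at 0.934, 1.90 and 4.54 CPM in HD rats 64, 67 and 69. The estimated counts behind these values were at most 20 in an AL rat and 142 in rat 69, the deepest library. The HD rats spread over 4.86 times and rat 64 lay within the AL range, so the log2 fold change of 1.59 (SE 0.62) fell to 0.79 without rat 69. Trib3, a pseudokinase that restrains Akt and Atf4 itself, was at 1.11, 0.554 and 0.662 CPM in the AL rats and at 1.27, 0.899 and 1.60 CPM in the HD rats. Rat 67 was below rat 61, and the log2 fold change was 0.72 (SE 0.47), ranging from 0.52 without rat 71 to 1.05 without rat 61. Without rat 69, whose 50 counts alone passed the count minimum, Trib3 was not tested.

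Asns, which makes asparagine and is a classic target of amino acid deprivation, was at 6.27, 10.3 and 8.34 CPM in AL rats 61, 71 and 88 and at 9.59, 10.2 and 8.57 CPM in HD rats 64, 67 and 69. All HD rats lay within the AL range, and the log2 fold change was 0.18 (SE 0.23, range without 1 rat 0.02 to 0.37). Ppp1r15a (GADD34) guides the phosphatase that dephosphorylates eIF2 and so ends the response. Its levels were 53.5, 43.0 and 70.5 CPM in the AL rats and 51.4, 49.2 and 84.4 CPM in the HD rats, with a log2 fold change of 0.15 (SE 0.26). Over the fits without 1 rat that of Ppp1r15a ranged from -0.14 without rat 69 to 0.36 without rat 88 and was also below 0 without rat 71. Rat 69 had the highest level of Ppp1r15a, Ddit3, Chac1, Trib3 and Atf5, but stood between the other HD rats for Gdf15. For Sesn2 rat 69 was the lowest HD rat in CPM but not in TPM, with 27.2 against 25.2 in rat 67.

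Of the 10 genes, 2 were higher in every HD rat than in every AL rat, where 7.24% of all tested genes were, and 0 were lower in every HD rat, where 7.01% were. An unadjusted *P* value below 0.05 with a higher HD level was counted for 3 of the 10, beside 4.66% of all tested genes. After Benjamini-Hochberg adjustment edgeR called 0% of all genes, while 1224 (10.6%) had an unadjusted *P* value below 0.05 in either direction, and DESeq2, the tool of the study's methods, called 182. Because the set was chosen on this contrast, nothing is read from these counts. The median log2 fold change was 0.17 over the 10 genes and 0.15 over the 9 without Gdf15, beside 0.0067 over all tested genes. The median of the set rested on single rats. It was 0.47 without rat 61 and 0.012 over the remaining 9 genes without rat 69, where that of all tested genes was 0.015, and 0.086 under library size alone.

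**Figure D2:**
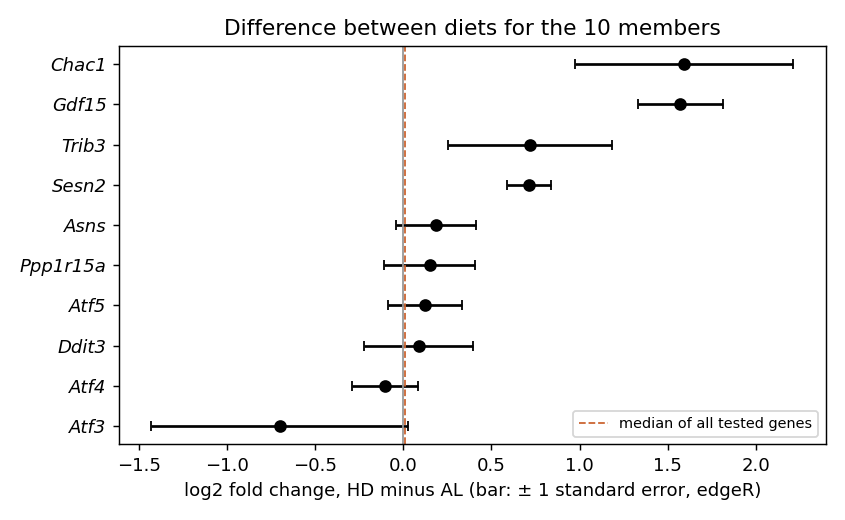
Log2 fold change of HD relative to AL for the 10 genes, with points for the edgeR estimate, bars for 1 SE to each side and a dashed line at the median of all tested genes (0.0067). Chac1 (1.59) and Gdf15 (1.57) lie farthest to the right, but the bar of Chac1 is 0.62 and that of Gdf15 0.24. Atf4 and Atf3 lie left of 0.

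Levels of different genes were compared per transcript length, as TPM. Atf4 was the most abundant of the set, at 284 ± 22.0 TPM in AL rats and 254 ± 52.7 TPM in HD rats (SD, *n* = 3 each). Gdf15 was second in both groups, at 70.6 ± 17.9 TPM in AL rats and 202 ± 39.0 TPM in HD rats. In the AL rats Gdf15 overlapped with Ddit3 (68.2 ± 12.5 TPM) and stayed far under Atf4. In the HD rats it was clear of Ddit3 (70.1 ± 31.7 TPM) and overlapped with Atf4, which it exceeded in rat 64 with 235 against 193 TPM.

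The middle of the order was formed by Ppp1r15a (44.2 and 47.3 TPM in the AL and HD means), Atf3 (33.3 and 20.9), Atf5 (26.8 and 27.6) and Sesn2 (18.0 and 28.0). In the AL group Sesn2 (16.3 to 19.7 TPM) lay below every rat of Atf5 (21.0 to 30.7), whereas in the HD group its rats (25.2 to 31.7) fell within the range of Atf5 (19.5 to 33.6). Ppp1r15a overlapped with Ddit3 in both groups. Asns, at 6.68 and 7.13 TPM, was clear of the genes above and below it in each group. Trib3 and Chac1 came last, at 0.870 and 0.863 TPM in AL rats and at 1.38 and 2.47 TPM in HD rats, and did not differ from each other beyond the spread of the rats.

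Genes with a pattern like that of Gdf15 were ranked by the root mean square difference of their centered log2 levels over the 6 rats. The 5 closest of 11552 genes were Slc4a4, a sodium bicarbonate cotransporter (0.230), LOC287167 (0.231), Acot12, an acyl-CoA thioesterase (0.239), Rxrg, a retinoid X receptor (0.262), and Cd55, a complement regulator (0.278). All were scarce, with AL means between 0.376 and 3.16 CPM and HD means between 2.29 and 7.26. Slc4a4, Acot12 and Rxrg reached the count minimum only through HD rats. Their fitted log2 fold changes (1.94, 1.92 and 2.60) were larger than that of Gdf15 (1.57). Those of LOC287167 (1.27) and Cd55 (1.20) were smaller. The ranking adds 0.5 CPM before the log, which shrinks differences of scarce genes most, so closeness here is not equality of fold change. Sesn2 was the closest gene of the set (0.521, rank 123), followed by Trib3 (rank 316) and Chac1 (rank 2045). Atf4 stood at rank 7810 and Atf3 at rank 10674. The ranking uses the same diet contrast and is a description only.

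The wider response was examined in lists of genes outside the set. Of 30 other established Atf4 targets, 28 were tested, and edgeR called none after adjustment (smallest adjusted *P* = 0.368). At an unadjusted *P* value below 0.05, 3 were higher (background 4.66%) and 1 was lower in the HD group (background 5.94%), and 17 were above and 11 below 0 with a median log2 fold change of 0.19. The 4 genes below that *P* value became 1 without rat 88, 2 without rat 64 or under library size alone, and 7 without rat 69, and the median became 0.06 without rat 64, 0.12 without rat 61 and 0.12 under library size alone. The smallest *P* value belonged to a gene with a lower HD level. Slc38a2, the amino acid transporter that cells induce when amino acids run short, was at 293, 254 and 325 CPM in AL rats 61, 71 and 88 and at 146, 216 and 147 CPM in HD rats 64, 67 and 69. Its log2 fold change was -0.78 (SE 0.19, adjusted *P* = 0.368 in edgeR and 0.0127 in DESeq2), and it was the only gene of this list that DESeq2 called, where 0.77% of all tested genes were called as lower.

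The 3 genes below that unadjusted *P* value with a higher HD level differed by less. Shmt2, the mitochondrial serine hydroxymethyltransferase, had a log2 fold change of 0.45 (SE 0.14). The study names Shmt2 among its upregulated genes, whereas neither tool called it here after adjustment. For Cebpg, a partner of Atf4 on DNA, the level was between 15.5 and 16.1 CPM in the AL rats and between 18.3 and 22.3 in the HD rats, with a log2 fold change of 0.37 (SE 0.14). Xpot, which exports tRNA from the nucleus, had 0.35 (SE 0.13). In each of these 3 genes every HD rat was above every AL rat (background 7.24%). The adjusted *P* values of Shmt2, Cebpg and Xpot were 0.406, 0.418 and 0.423 from edgeR and 0.176, 0.393 and 0.330 from DESeq2. Nupr1, a stress-induced chromatin protein, had a log2 fold change of -0.93 (SE 0.42, adjusted *P* = 0.493) and Slc3a2, the shared subunit of several amino acid exchangers, one of 0.32 (SE 0.14, adjusted *P* = 0.494), both with overlapping groups. The hormone Fgf21, another secreted Atf4 target, had at most 7 estimated counts in a rat and was not tested, like Pycr1 with at most 4.

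All 12 aminoacyl-tRNA synthetases that Atf4 is known to regulate had a log2 fold change above 0, as 51.3% of all tested genes had, but the values were small, from 0.0086 to 0.35 with a median of 0.09. Under library size alone, which moved the median of all genes to -0.074, 7 of the 12 were above 0. None passed the adjusted threshold and 2 had an unadjusted *P* value below 0.05 (background 4.66%). Aars, for alanine, averaged 163 ± 12.6 CPM in AL rats and 208 ± 19.8 CPM in HD rats (SD, *n* = 3 each), which gave a log2 fold change of 0.35 (SE 0.12, adjusted *P* = 0.406 from edgeR). Sars, for serine, had 0.28 (SE 0.11, adjusted *P* = 0.432) and Lars, for leucine, 0.12 (SE 0.09, adjusted *P* = 0.719). The HD rats were above all AL rats in these 3 genes of the 12 (background 7.24%).

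Of the 4 kinases that start the response, 3 overlapped between the groups and 1 did not, where 14.3% of all tested genes did not. Eif2ak4 (Gcn2) was at 22.7, 22.6 and 23.8 CPM in AL rats 61, 71 and 88 and at 17.3, 17.7 and 21.9 CPM in HD rats 64, 67 and 69. Every HD rat was below every AL rat, with a log2 fold change of -0.28 (SE 0.14, adjusted *P* = 0.538 from edgeR). Eif2ak1, which senses heme, had a log2 fold change of 0.11 (SE 0.12), Eif2ak3 (Perk) one of 0.02 (SE 0.18) and Eif2ak2, which senses double-stranded RNA, one of 0.0053 (SE 0.15), and the signs of the last pair turned under library size alone. Of the 13 genes of the kinases and the eIF2 machinery, 1 had an unadjusted *P* value below 0.05 (background 10.6%) and none passed the adjusted threshold. It was Eif2b2, a subunit of the exchange factor that phosphorylated eIF2 blocks, with 42.6 ± 1.27 and 51.5 ± 2.17 CPM (SD, *n* = 3 each) and an adjusted *P* value of 0.408 from edgeR. These mRNA levels do not report the phosphorylation of eIF2 or the amount of Atf4 protein, which were not measured in these files.

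Genes under the other arms of the unfolded protein response had a median just below 0. Of 17 tested genes under Atf6 and Xbp1, 12 were below and 5 above 0, the median log2 fold change was -0.05, and 0 had an unadjusted *P* value below 0.05 in edgeR (background 10.6%) and 0 were called by DESeq2. The smallest *P* values belonged to Xbp1 (-0.23, SE 0.12), the disulfide isomerase Pdia4 (-0.30, SE 0.16) and Creld2 (-0.27, SE 0.17), with adjusted *P* values from 0.561 to 0.620. Of 9 tested mitochondrial chaperones and proteases, 8 were above 0 (6 under library size alone) with a median of 0.15, and 1, the chaperone Dnaja3, had an unadjusted *P* value below 0.05 (log2 fold change 0.39, SE 0.16, adjusted *P* = 0.466 from edgeR, background 4.66%). Hspd1 and Lonp1 had log2 fold changes of 0.22 and 0.15.

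Because p53 can also drive Gdf15 and Sesn2, its targets were listed as well. Of 11 tested p53 targets, 6 were above and 5 below 0, with a median log2 fold change of 0.06 (-0.03 under library size alone), and none was called at an unadjusted *P* value below 0.05 in edgeR (background 10.6%) or after adjustment in DESeq2. Bbc3, an inducer of apoptosis, had the smallest *P* value with a log2 fold change of -0.67 (SE 0.34, adjusted *P* = 0.536). Bax had -0.15 and the cyclin Ccng1 0.10. Of the receptor of Gdf15, Gfral had a count of 0 in all 6 rats and was not detectable at this depth, and Ret had at most 16 counts in a rat.

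**Figure D3:**
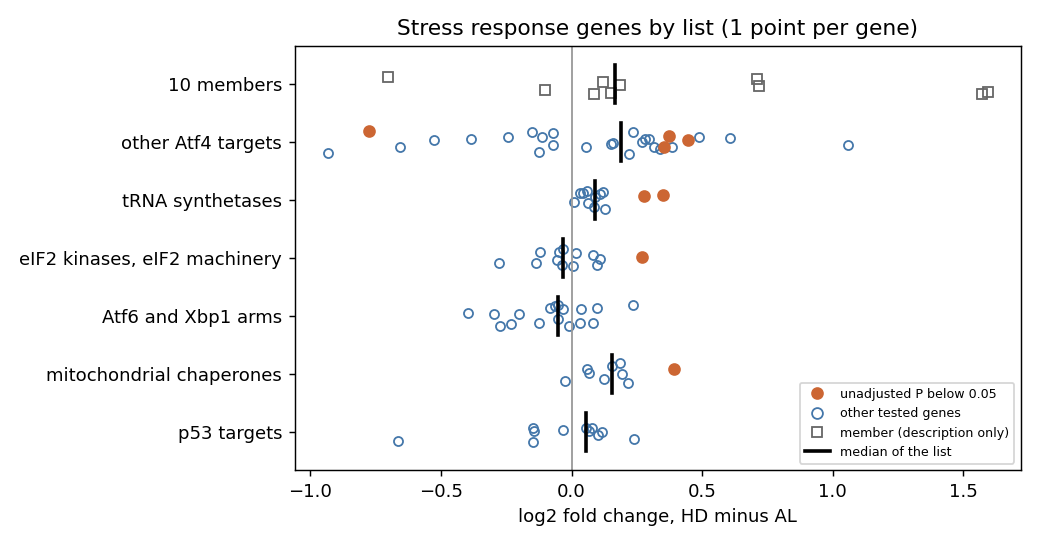
Log2 fold change of HD relative to AL for each tested gene of 7 lists, with gray squares for the 10 genes of the set, filled orange points for an unadjusted *P* value below 0.05 in the other lists, open blue points for their remaining genes and a black bar for the median of the list. The medians lie between -0.05 (Atf6 and Xbp1 arms) and 0.19 (other Atf4 targets), while Gdf15 at 1.57 and Chac1 at 1.59 stand far to the right.

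Markers of several cell types differed between the groups as well. The 6 proximal tubule markers summed to between 6395 and 8853 CPM in the AL rats and between 8522 and 11754 in the HD rats. The sums overlapped, with AL rat 61 above HD rat 69, and 5 of the 6 markers had a higher HD mean. The transporters Slc22a6 and Slc34a1 had log2 fold changes of 1.07 (SE 0.24) and 0.70 (SE 0.24), with the HD rats above all AL rats. Miox, an enzyme of inositol breakdown, had 0.41 (SE 0.20). Slc5a2 had 0.57 (SE 0.43), Lrp2 0.19 (SE 0.16) and Cubn -0.05 (SE 0.14), all with overlapping groups. Macrophage markers were lower, with sums between 125 and 445 CPM in the AL rats and between 48.0 and 106 in the HD rats, and all 7 had a lower HD mean. The smallest *P* values among them belonged to Lyz2 with -2.30 (SE 0.52), Aif1 with -1.47 (SE 0.36) and Csf1r with -1.19 (SE 0.39). The 6 podocyte markers summed to between 59.5 and 143 CPM in the AL rats and between 151 and 348 in the HD rats, and all 6 had a higher HD mean. The 6 lymphocyte markers summed to between 3.57 and 8.15 CPM in the AL rats and between 1.61 and 2.46 in the HD rats. Thick ascending limb, collecting duct, endothelial and fibroblast or vascular muscle markers overlapped between the groups in their sums, like those of the proximal tubule. All 4 thick ascending limb markers and 3 of the 4 collecting duct markers were lower in the HD group. Slc12a1 (log2 fold change -0.86, SE 0.31), Aqp3 (-0.41, SE 0.16) and Avpr2 (-0.54, SE 0.19) were lower in every HD rat (background 7.01%). For Slc12a1 (NKCC2) the study found no diet effect by qPCR of its isoforms and more protein by immunohistochemistry. No marker was at 0 in all rats. The part of these cell types in the levels of the 10 genes was not tested.

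For the proximal tubule, each gene was divided by the summed marker level of the same rat, a step added after the data had been seen. The sum is carried mostly by Miox, Lrp2 and Slc34a1, so the scale depends on the markers chosen, and other choices were not tested. Per 1000 CPM of markers, Gdf15 was at 5.76, 5.20 and 4.26 CPM in AL rats 61, 71 and 88 and at 11.8, 9.00 and 13.5 CPM in HD rats 64, 67 and 69. The groups remained separate, and the ratio of the means was 2.25. Sesn2 was at 3.46, 4.08 and 4.73 CPM per 1000 in the AL rats and at 4.93, 4.41 and 5.36 CPM in the HD rats. Its groups overlapped on this scale, with a ratio of 1.20. The groups of the other 8 genes overlapped as well. The ratio of the means went from above 1 to below 1 for Asns (1.14 to 0.825), Ppp1r15a (1.11 to 0.830), Atf5 (1.08 to 0.804) and Ddit3 (1.06 to 0.827). It was 0.703 for Atf4, 0.516 for Atf3, 1.26 for Trib3 and 2.37 for Chac1.

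**Figure D4:**
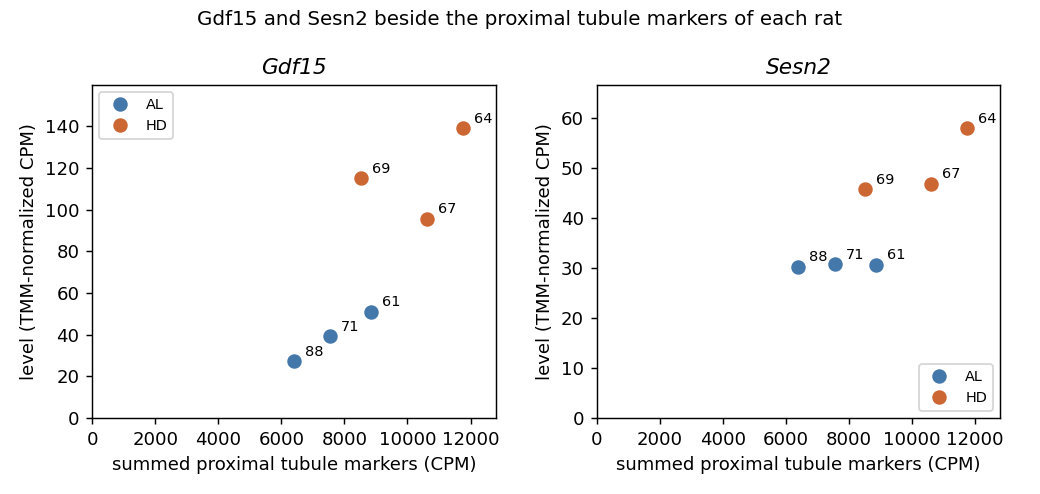
Level of Gdf15 (left) and Sesn2 (right) in TMM-normalized CPM against the summed CPM of 6 proximal tubule markers, with 1 point per rat and the rat number beside it, AL in blue and HD in orange. The marker sums run from 6395 to 8853 CPM in the AL rats and from 8522 to 11754 CPM in the HD rats, and the HD rats lie above the AL rats in the level of both genes.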

How the data were processed

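Kidney RNA of 6 rats was sequenced from poly(A)-selected, unstranded libraries, 1 per rat. Per the labels, the authors quantified transcripts with RSEM 1.1.15 against rn5 (gene definitions of UCSC), and deposited estimated counts (expected counts, not normalized), a posterior mean count and TPM values. Filters on reads are not given in the sources used here.

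For each gene, the transcripts' estimated counts were added up and rounded. Genes with at least 30 counts in at least 1 rat were tested by edgeR 4.0.16 (R 4.3.3, TMM, quasi-likelihood test, diet as the only factor), with Benjamini-Hochberg adjustment over 11553 genes and a threshold of 0.05. The standard error (SE) is the absolute log2 fold change divided by the square root of F. Fitted fold changes at counts under 20 depend on edgeR's prior count. The common biological coefficient of variation was 0.242. DESeq2 1.42.0, RLE, library size alone, other count minimums, posterior mean counts and leaving out each rat were alternatives. Every pair of libraries differed beyond sampling noise (chi-square per degree of freedom at least 23.6). The *P* values weigh the diet difference against the spread between these 6 animals, which edgeR moderates with information from all tested genes.

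Named genes are all members, the 4 eIF2 kinases, the receptor genes and the 5 genes most like Gdf15 over log2(CPM + 0.5). From the other Atf4 targets the 6 with the smallest *P* values are named, and from each other list the 3. Markers are given as sums, with all 6 of the proximal tubule and 3 of the macrophage named. Those of the thick ascending limb and collecting duct are named where the groups did not overlap. The members and lists were chosen with earlier results of these data known, and the motifs after the levels had been seen. Promoters came from RefSeq (GRCr8). Coordinates are those of the files (rn5).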

Additional observations from a re-analysis of the deposited data

How the results depend on the processing

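The log2 fold change of Gdf15 was between 1.50 and 1.59 with DESeq2, RLE, library size alone, both other count minimums and posterior mean counts, and between 1.38 and 1.81 with each rat left out. Divided by the summed proximal tubule markers, a scaling chosen after seeing the data, it was 1.17 on the log2 scale of the ratio of means, and that of Sesn2 was 0.26. Genes past the adjusted threshold numbered 0 in edgeR, 182 in DESeq2, 2 with every gene above 0 counts, and 0 to 4 with each rat left out. Other Atf4 targets with an unadjusted *P* value below 0.05 numbered 4, but 2 with library size alone and 1 to 7 with each rat left out (1 without rat 88, 2 without rat 64, 7 without rat 69). Library size alone moved the median of all genes from 0.0067 to -0.074. Without rat 61 Atf3 had 0.62 and Trib3 1.05, and without rat 69 Chac1 had 0.79. Chac1 was not tested where every rat needed 10 counts or more. The cause of these shifts was not tested. No paired analysis was run, because the study assigned separate rats at random to the diets and names no pairs. Chac1 and Trib3 are limited by depth.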
